A study of Danio rerio with 3 samples.

Results

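Transporters of the solute carrier families slc1, slc3, slc6, slc7, slc16, slc36, slc38 and slc43 move amino acids, transmitters, creatine, lactate and related small acids across cell membranes. They were chosen by symbol alone, as genes of these 8 families in the platform's probe annotation, with the glial glutamate transporters slc1a2 and slc1a3 left out. In all, 83 of 15554 measured genes met this rule, read by 139 probes. One of them, slc7a6os, is no transporter: it is named for lying opposite to slc7a6, and it is counted with slc7 because its symbol matches. A current annotation of the zebrafish genome lists 97 genes that meet the rule, and the other 14, among them slc7a11 and slc6a1b, were not analysed here.

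The samples were whole zebrafish embryos of the wild-type Ab strain at 48 hours post fertilisation. Treated embryos had been kept from 8 hours onwards in 40 µM LY-364947, an inhibitor of the type 1 TGF-β receptor, and untreated embryos served as controls. There were 3 treated replicates, each a pool of 10 to 15 embryos, and each was hybridised on its own 2-colour array against 1 common pool of RNA from 3 untreated replicates. Dyes were exchanged on the array of replicate 2. The untreated pool is therefore 1 control sample that enters every ratio, and the spread between untreated embryos was not measured.

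Each value is a log ratio of both channels, read here as log2, with the sign of replicate 2 turned so that all arrays run alike. After turning, the arrays correlated over all probes at r = 0.742 (replicates 1 and 2), r = 0.647 (2 and 3) and r = 0.521 (1 and 3), across probes that are not independent. The sources do not state which channel is the numerator: the sample titles, which name treated embryos first on arrays 1 and 3, make positive values higher after treatment, whereas a ratio of Cy5 to Cy3 makes them higher in untreated embryos. Genes are therefore placed on a positive or a negative side, with no direction of treatment claimed. A log base of 10 would make every fold larger and leave the test as it is. No intensities were given, so dim probes could not be recognised, a ratio cannot show whether a tissue is present, and levels of different genes cannot be compared. In whole embryos, fewer cells of a type and less RNA per cell cannot be told apart.

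Amino acid transporters work in small functional sets. Light chains of slc7 such as LAT1 (slc7a5) reach the cell surface bound to a heavy chain of slc3 and mostly exchange one amino acid for another. The proteins of slc38 and slc6 use the sodium gradient to accumulate substrates, those of slc16 carry lactate, pyruvate, creatine or related substrates, and those of slc36 and slc38a9 serve at the lysosome as well. In mammals, shortage of amino acids activates the transcription factor ATF4, which raises transcription of several of these transporters together with enzymes that make amino acids. In the embryo, transporters of slc6 and slc1 also clear transmitters such as GABA, glycine, dopamine and glutamate from around neurons.

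The 8 families did not move as a block. In limma's test of the mean ratio against 0, 13 of the 83 genes had an adjusted p under 0.05, of which 8 were positive and 5 negative. That is 15.7% against 19.4% of all genes. Positive calls made up 9.95% of all genes and negative calls 9.44%. Among 231 other solute carrier genes, 30 passed (13%). The share of called transporters thus lay near that of the background, and no statement about the families as a whole rests on it. The median size of a mean ratio was 0.078 log2 units for the transporters and 0.089 for all genes, and the 3 arrays had 1 sign for 50.6% of the transporters and 52.3% of all genes. No transporter reached a 2-fold mean ratio, and 104 of all 15554 genes passed with one, so 0 of 83 is near the background. A mean size of 0.5 or more was found for 4.82% of the transporters and 4.22% of all genes. Without replicate 2 the count of called transporters was 6 and without replicate 3 it was 19, beside 6.85% and 23.8% of all genes. Of the 83 genes 46 had only 1 probe, so their probes could not be compared. Among these were the called slc1a1, slc3a2a, slc6a3, slc16a12b, slc38a8b, slc38a11 and slc43a3b.

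**Figure D1:**
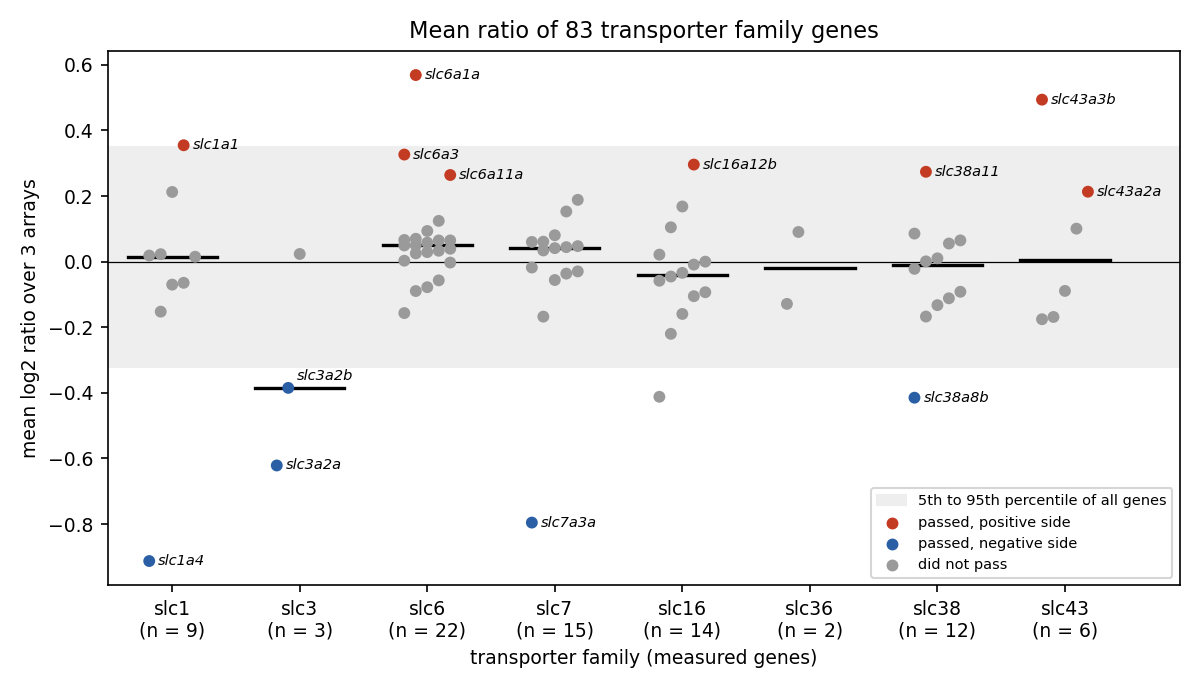
Mean log2 ratio over 3 arrays (vertical axis) of each of the 83 genes, by family (horizontal axis, number of measured genes below each name). Points are genes, coloured by side where limma's adjusted p was below 0.05 and grey otherwise; black bars are family medians and the band spans the 5th to 95th percentile of all genes, -0.32 to 0.35. Only the bar of slc3, at -0.38, lies outside the band. The band describes single genes, so a median over many genes can hardly leave it. The slc3 bar covers only 3 genes, among them both copies of slc3a2.

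By family, 2 of 3 slc3 genes, 2 of 9 slc1 genes, 3 of 22 slc6 genes, 1 of 15 slc7 genes, 1 of 14 slc16 genes, 0 of 2 slc36 genes, 2 of 12 slc38 genes and 2 of 6 slc43 genes passed by limma. Before adjustment, 23 of the 83 had a limma p under 0.05, beside 5052 of all 15554 genes. The median ratio was -0.38 for slc3 and lay between -0.04 and 0.05 for the other families, beside -0.0013 for all genes. The slc3 median was -0.31, -0.32 and -0.52 on replicates 1, 2 and 3, and it covers only 3 genes. The slc6 median was positive on every array (0.03, 0.05 and 0.05), while 19 of its 22 members did not pass.

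The heavy chains came first among the negative members by family. slc3a2a, a copy of the gene for the heavy chain 4F2hc that carries LAT1 and its relatives to the membrane, had log2 ratios of -0.79, -0.56 and -0.52 on replicates 1, 2 and 3. All 3 arrays lay on the negative side, with a mean of -0.62 ± 0.15 (SD, n = 3), a 1.54-fold difference (limma adjusted p = 0.00157). Its duplicate slc3a2b had -0.31, -0.32 and -0.53, a mean of -0.38 ± 0.13 (limma adjusted p = 0.00715), and each of its 3 probes passed on its own, at -0.33 to -0.43. The call of slc3a2b was lost without replicate 2 at a mean of -0.42 (limma adjusted p = 0.0518, with 1 residual degree of freedom). slc3a1, the heavy chain rBAT of renal and intestinal cystine transport, had -0.03, -0.01 and 0.10 and did not pass (mean 0.02, 95% interval -0.10 to 0.15).

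The light chains that bind these heavy chains did not pass. Of 8 measured, 0 passed by limma, beside 19.4% of all genes, with means from -0.17 to 0.19. With so few genes, a count of 0 is not set apart from that share. slc7a5, the LAT1 gene for large neutral amino acids, had -0.23, -0.09 and -0.18, all on the negative side. Its mean of -0.17 ± 0.07 (SD, n = 3) was among the 3 nearest to the threshold (limma adjusted p = 0.0741, 95% interval -0.29 to -0.04), and neither of its 2 probes passed alone. The LAT2 copies slc7a8a and slc7a8b averaged -0.02 (95% interval -0.14 to 0.11) and -0.04 (95% interval -0.25 to 0.18), and slc7a8b had -0.31 on replicate 1 and 0.08 and 0.12 on the others. The y+LAT gene slc7a6 had 0.07, 0.16 and 0.22, a mean of 0.15 that did not pass (limma adjusted p = 0.101), although 1 of its 2 probes did (0.25, limma adjusted p = 0.0328, over all probes). Its opposite-strand neighbour slc7a6os had 0.09, -0.05 and -0.13.

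Among the cationic amino acid transporters of slc7, slc7a3a stood alone. It is named after mammalian CAT3, a carrier of arginine and lysine, and its log2 ratios were -0.50, -0.78 and -1.10. The arrays shared the negative side but differed in size, with a mean of -0.80 ± 0.30 (SD, n = 3), a 1.74-fold difference (limma adjusted p = 0.00338). Both of its probes passed, at -0.58 and -1.01. The other 5 genes of this group, slc7a1b, slc7a2, slc7a3b, slc7a4 and slc7a14a, had means between 0.03 and 0.06. None passed, beside 19.4% of all genes.

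The largest ratio of all 83 genes belonged to slc1a4, which encodes the exchanger known in mammals as ASCT1, a carrier of serine, alanine, cysteine and threonine. Its values were -1.002, -0.72 and -1.02. Every array lay on the negative side, with a mean of -0.91 ± 0.17 (SD, n = 3), a 1.88-fold difference (limma adjusted p = 0.00048), and by size it stood at the 99.1st percentile of all genes. Each of its 4 probes passed, at -0.73 to -1.10. The related slc1a5, named after the glutamine exchanger ASCT2, had -0.07, -0.02 and -0.12, a mean of -0.07 that did not pass (95% interval -0.19 to 0.05).

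Of the 7 glutamate transporters left in slc1, 1 passed by limma (14.3% beside 19.4% of all genes), namely slc1a1. It is the counterpart of mammalian EAAC1, which takes up glutamate and cysteine in neurons and epithelia, and it had 0.41, 0.30 and 0.35. All arrays lay on the positive side, with a mean of 0.36 ± 0.05 (SD, n = 3), a 1.28-fold difference (limma adjusted p = 0.00471). The other 6, slc1a6, slc1a7a, slc1a7b, slc1a8a, slc1a8b and slc1a9, had means between -0.15 and 0.21. slc1a8b had 0.35 on replicate 1 and -0.09 and -0.21 on replicates 2 and 3.

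**Figure D2:**
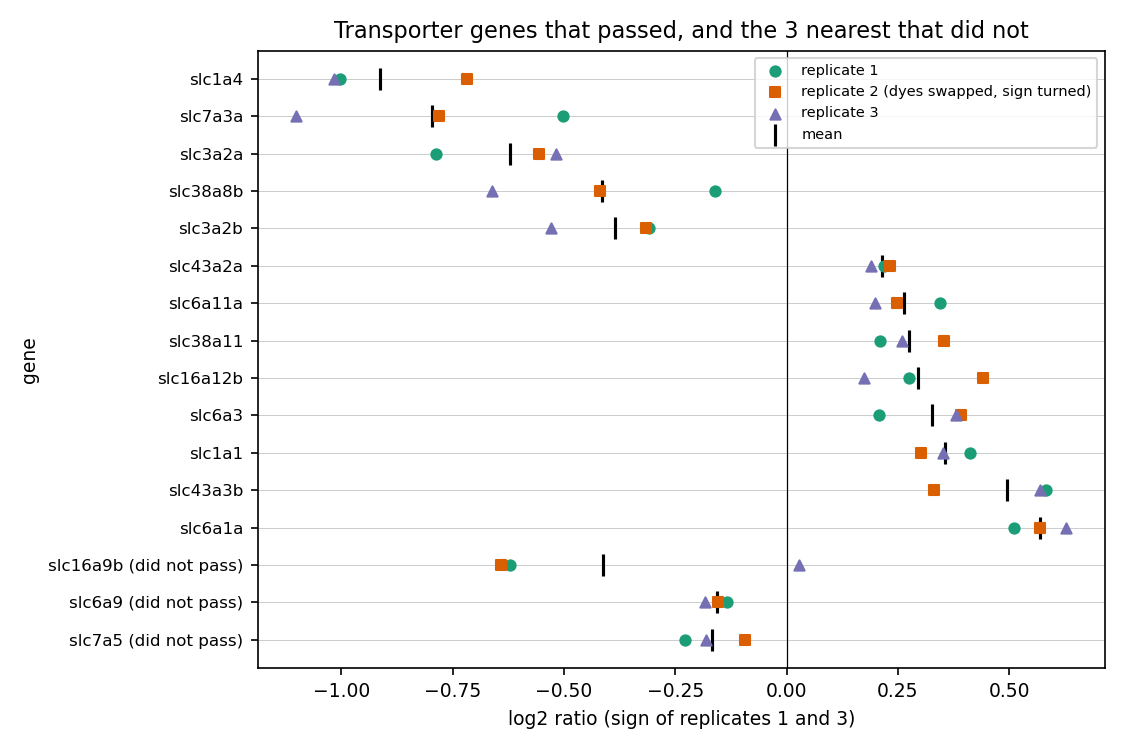
Log2 ratio (horizontal axis, sign of replicates 1 and 3) of the 13 transporter genes that passed and of the 3 with the next smallest adjusted p (vertical axis), with a marker for each of 3 arrays and a black tick for the mean. Every gene that passed has its 3 markers on 1 side of 0, whereas slc16a9b has -0.62 and -0.64 on replicates 1 and 2 and 0.03 on replicate 3.

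In slc6, the members that passed were transporters of GABA and dopamine, all on the positive side. slc6a1a, the counterpart of the neuronal GABA transporter GAT1, had 0.51, 0.57 and 0.63. Its mean was 0.57 ± 0.06 (SD, n = 3), a 1.48-fold difference (limma adjusted p = 0.00087), and its 3 probes passed at 0.37, 0.61 and 0.72. slc6a11a, named after GAT3, the GABA transporter of glia in mammals, had 0.35, 0.25 and 0.20 (mean 0.26 ± 0.07, limma adjusted p = 0.0166), and 1 of its 3 probes passed alone. slc6a3, which encodes the dopamine transporter, had 0.21, 0.39 and 0.38 (mean 0.33 ± 0.10, limma adjusted p = 0.0102). The calls of slc6a11a and slc6a3 were lost without replicate 2, at means of 0.27 (limma adjusted p = 0.124) and 0.29 (0.108), and that of slc6a11a also without replicate 1 (mean 0.22, limma adjusted p = 0.073).

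Other transmitter transporters of slc6 did not pass. slc6a9, for the glycine transporter GlyT1, had -0.13, -0.15 and -0.18, a mean of -0.16 ± 0.03 (SD, n = 3; limma adjusted p = 0.073), and its 5 probes ranged from -0.43 to -0.01 with 1 passing alone. The neuronal glycine transporter slc6a5 (GlyT2) had 0.01, -0.05 and 0.13 (95% interval of the mean -0.11 to 0.16). The noradrenaline transporter slc6a2 averaged -0.0027 and the serotonin transporters slc6a4a and slc6a4b 0.06 and 0.03. slc6a8, the creatine transporter, had 0.28 on replicate 1 and 0.05 and 0.04 on the others (mean 0.12 ± 0.13, limma adjusted p = 0.241). The taurine transporters slc6a6a and slc6a6b averaged -0.09 and 0.05. The 8 amino acid carriers and orphans of slc6 (slc6a7, slc6a14, slc6a16a, slc6a16b, slc6a17, slc6a18, slc6a19a.1 and slc6a19b) had means from -0.08 to 0.09. None passed, beside 19.4% of all genes. In the current annotation slc6a18 lies next to slc6a19a.1, and slc6a22.1 next to slc6a22.2, and probes of such copies may bind each other's transcripts. The last pair averaged 0.07 each.

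Genes of the same transmitters and general neuronal markers were also measured. Of 16 genes of GABA and glycine transmission, 7 passed as positive and 1 as negative, with a median of 0.19. That is 50% called, beside 19.4% of all genes. The vesicular transporter slc32a1, which loads GABA and glycine, had 0.34, 0.56 and 0.40 (mean 0.43 ± 0.11, limma adjusted p = 0.00403), and the GABA-synthesising enzymes gad1b and gad2 averaged 0.31 and 0.29. The glycine receptor subunit genes glra4b and glrbb averaged 0.30 and 0.34. The negative member was gldc, which breaks down glycine, at -0.56 ± 0.26 (limma adjusted p = 0.00814). Of 12 monoamine genes, 1 passed, or 8.33% beside 19.4% of all genes. It was the serotonin-synthesising tph2, at 0.20 ± 0.08 (limma adjusted p = 0.0497). The gene th, which makes the dopamine precursor, had 0.13 ± 0.03 (limma adjusted p = 0.129). Of 6 neuron markers, 5 passed on the positive side at 0.54 to 0.87, or 83.3% beside 9.95% of all genes on that side. The remaining marker, elavl3, had -0.16, 0.09 and 0.74. Summed levels and markers at 0 cannot be given from ratios, and the part of neuron number in the ratios of the slc6 genes was not tested.

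The monocarboxylate transporters that carry lactate and pyruvate with a proton showed no call, beside 19.4% of all genes called. The 6 measured genes were slc16a1a, slc16a1b, slc16a3a, slc16a3b, slc16a7 and slc16a8, with means from -0.11 to 0.10. slc16a1a, a copy of MCT1, had 0.14, -0.06 and 0.23 (95% interval of the mean -0.06 to 0.26), and slc16a1b had -0.19, -0.15 and 0.24 (-0.25 to 0.18). The copies of MCT4, which exports lactate from glycolytic cells, averaged 0.02 (slc16a3a, -0.11 to 0.16) and 0.00015 (slc16a3b, -0.12 to 0.13). bsg and emb, which encode partner proteins that bring these transporters to the membrane, averaged 0.01 and -0.01. The related adhesion genes nptna and nptnb passed on the positive side at 0.26 and 0.30. They come from a list of transporter partners in general, which also holds cltrn, at 0.07 and not passed. Of the 5 measured genes of that list 2 passed, or 40% beside 19.4% of all genes. Among 22 genes of lactate and pyruvate metabolism, 1 positive and 2 negative genes passed, a share of 13.6%. The lactate dehydrogenase gene ldhba had -0.51 ± 0.10 (limma adjusted p = 0.00188) and the pyruvate carboxylase gene pcxb -0.44 ± 0.17 (0.00748). mpc2a, for the mitochondrial pyruvate carrier, had 0.40 ± 0.27 (limma adjusted p = 0.0325). ldha averaged 0.21 and did not pass (limma adjusted p = 0.0574).

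Of the remaining slc16 genes, slc16a12b passed. It is named after a human creatine carrier that is mutated in juvenile cataract, and it had 0.27, 0.44 and 0.17. All arrays lay on the positive side, with a mean of 0.30 ± 0.13 (SD, n = 3), a 1.23-fold difference (limma adjusted p = 0.0208). Without replicate 2 the mean was 0.22 (limma adjusted p = 0.176) and without replicate 1 it was 0.31 (0.0517). slc16a9b had the largest mean of the genes that did not pass, at -0.41 ± 0.38 (limma adjusted p = 0.0709). Its values were -0.62 and -0.64 on replicates 1 and 2 and 0.03 on replicate 3, so the arrays disagreed. Its mean was -0.31 without replicate 1 (limma adjusted p = 0.213), -0.30 without replicate 2 (0.347) and -0.63 without replicate 3 (3.46e-05), and the last leaves out the array that differs. slc16a9a (-0.36, -0.20 and 0.08) and slc16a4 (-0.34, -0.34 and 0.01) likewise had their negative values on replicates 1 and 2. slc16a10, named after a mammalian carrier of aromatic amino acids, had 0.23, 0.31 and -0.03. These 4 genes, with slc43a1a and slc7a10a, were the 6 added to the calls without replicate 3. Of 13 genes of thyroid hormone handling, 3 passed, tg at 0.46, rxrga at 0.30 and crym at -0.40. That is 23.1%, near the 19.4% of all genes.

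Most measured genes of creatine synthesis and use, mainly creatine kinases, passed. Of the carriers, slc16a12b, named after a creatine carrier, passed as positive, and the creatine transporter slc6a8 did not pass. Of the 7 genes of synthesis and use, 5 passed as positive and 1 as negative, or 85.7% beside 19.4% of all genes. The muscle kinase copy ckmb averaged 0.0069 and did not pass. The brain-type creatine kinase ckbb averaged 1.51 ± 0.15 (limma adjusted p = 5.9e-05) and the sarcomeric mitochondrial kinase ckmt2a 1.32 ± 0.28 (0.000454). The muscle kinase ckma averaged 0.40 ± 0.19 (0.0133), and ckmt1, the other mitochondrial kinase, lay at -0.65 ± 0.23 (0.00362).

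In slc38, the sodium-coupled glutamine transporters, the genes that passed were slc38a8b and slc38a11, on opposite sides. slc38a8b had -0.16, -0.42 and -0.66, all on the negative side, with a mean of -0.41 ± 0.25 (SD, n = 3), a 1.33-fold difference (limma adjusted p = 0.0226). Its human counterpart is known from mutations that disturb foveal development. slc38a11 had 0.21, 0.35 and 0.26, a mean of 0.27 ± 0.07 (limma adjusted p = 0.0145). Without replicate 2 neither passed, at means of -0.41 (limma adjusted p = 0.135) and 0.23 (0.151). slc38a2, the amino acid-regulated system A transporter SNAT2 of mammals, had 0.00019, -0.01 and -0.49, so that its mean of -0.17 (95% interval -0.41 to 0.07) came from replicate 3. Of its 2 probes, 1 averaged -0.33 and the other -0.01. The other system A and N genes slc38a3a, slc38a4, slc38a5a and slc38a5b had means from -0.13 to 0.09. slc38a9, the lysosomal arginine sensor of mammals, had -0.14, -0.04 and 0.22 (95% interval of the mean -0.17 to 0.19).

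slc36a1 and slc36a4, proton-coupled amino acid transporters, averaged 0.09 and -0.13, the latter with -0.37 on replicate 1 and -0.00047 and -0.01 on the others. Of 24 measured genes of lysosomal amino acid sensing, the route by which amino acids activate the kinase mTORC1, 1 positive and 3 negative genes passed, a share of 16.7% beside 19.4% of all genes. The positive gene was rheb, the GTPase that activates mTORC1, at 0.30 ± 0.13 (limma adjusted p = 0.0184). The negative ones were castor1, an arginine sensor, at -0.26 ± 0.08 (0.0189), nprl3, a subunit of an inhibitory complex, at -0.31 ± 0.18 (0.0278) and sesn3 at -0.22 ± 0.11 (0.0457).

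In slc43, a family of sodium-independent facilitators, each of the 6 members had 1 sign on all 3 arrays, beside 52.3% of all genes. Some members were positive and others negative, with a family median of 0.0058. By limma 2 passed, or 33.3% beside 19.4% of all genes, a share that rests on few genes. slc43a3b had 0.58, 0.33 and 0.57, a mean of 0.49 ± 0.14 (SD, n = 3), a 1.41-fold difference (limma adjusted p = 0.00346). In mammals its counterpart carries purine nucleobases rather than amino acids. slc43a2a, named after the branched-chain carrier LAT4, had 0.22, 0.23 and 0.19, a mean of 0.21 ± 0.02 (limma adjusted p = 0.026). This was the smallest mean among the called transporters, 1 of its 2 probes passed alone, and it was lost without replicate 1 (0.21, limma adjusted p = 0.0875) and without replicate 2 (0.20, 0.2). The LAT3 copies slc43a1a and slc43a1b averaged -0.17 and -0.09 and did not pass.

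Zebrafish keep both copies of many genes that were duplicated in the ancestor of teleost fish, and the copies of a transporter can be set against each other on each array. Of 18 pairs with an a and a b copy on the array, the difference between copies passed limma for 5. Among all genes 417 of 1825 such pairs passed (22.8%), and the count for the transporters lies near that share. Each of the 5 pairs holds a copy that also passed against 0 on the same arrays, so the differences are not separate evidence. The copies of slc7a3 differed most: a minus b was -0.58, -0.82 and -1.17 on the 3 arrays, a mean of -0.86 ± 0.30 (SD, n = 3; limma adjusted p = 0.00193). Here slc7a3a lay at -0.80 while slc7a3b had 0.08, 0.04 and 0.07. The 3 probes of slc7a3b differed, with means of -0.08, 0.07 and 0.20, and none passed alone. The slc43 pairs differed in opposite senses, with slc43a2a above slc43a2b by 0.39 ± 0.20 (limma adjusted p = 0.0229) and slc43a3a below slc43a3b, at a minus b of -0.39 ± 0.17 (0.0176). In slc38a8 the b copy was the more negative, with a minus b of 0.32 ± 0.16 (limma adjusted p = 0.0344), and in slc16a12 the b copy was the more positive, at -0.30 ± 0.15 (0.04).

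The copies of slc3a2 both lay on the negative side, and their difference did not pass (a minus b -0.24, 95% interval -0.48 to 0.003, limma adjusted p = 0.142). It was -0.48, -0.24 and 0.01 on replicates 1, 2 and 3. For slc16a1, slc16a3, slc7a8 and slc6a4 the intervals of a minus b were -0.07 to 0.35, -0.18 to 0.22, -0.25 to 0.29 and -0.15 to 0.21. Without replicate 2, 0 of the 18 pairs passed, with 67 of all pairs. The slc7a3 difference was then -0.87 (limma adjusted p = 0.0529), that of slc43a2 0.45 (0.111), that of slc43a3 -0.49 (0.0716), that of slc38a8 0.37 (0.154) and that of slc16a12 -0.22 (0.306). Without replicate 1 the slc43a2 difference was 0.27 (0.118), and without replicate 3 that of slc38a8 was 0.23 (0.083).

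**Figure D3:**
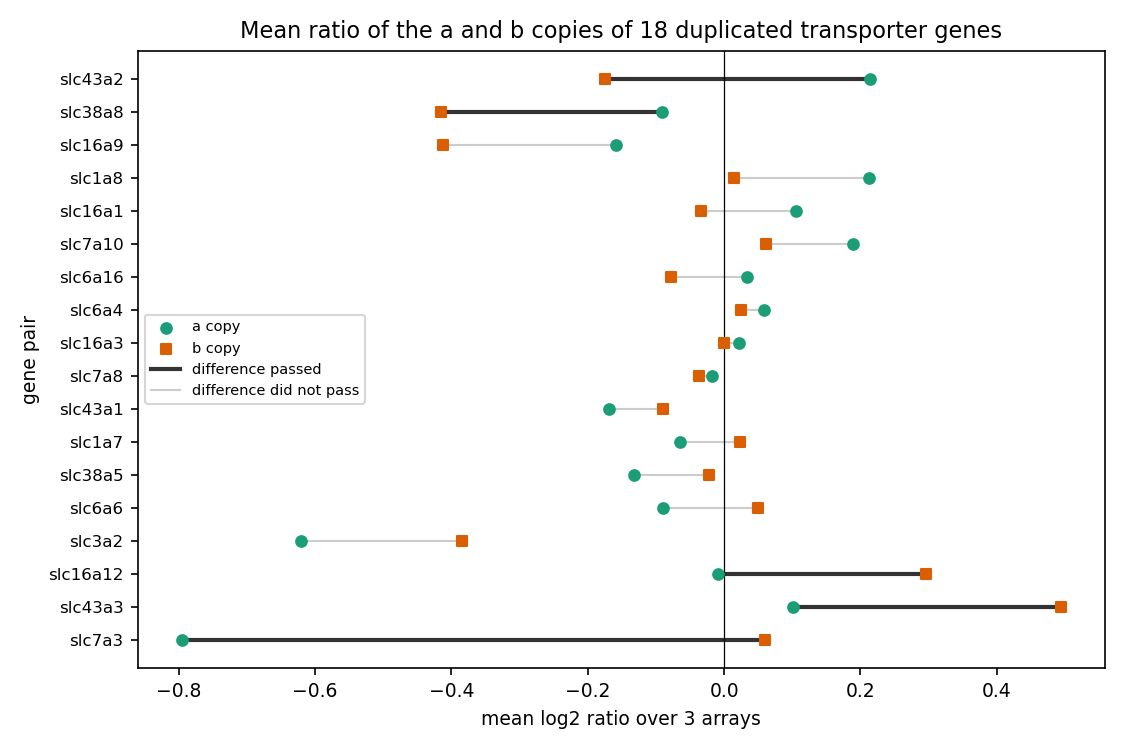
Mean log2 ratio over 3 arrays (horizontal axis) of the a copy (circles) and the b copy (squares) of 18 duplicated transporter genes (vertical axis). Dark lines join copies whose difference passed limma's adjusted p of 0.05. The slc7a3 copies lie farthest apart, at -0.80 and 0.06.

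The negative transporters stood beside genes of the amino acid response, the programme that ATF4 runs in mammals when amino acids are short. Of 26 listed genes 17 were measured, and by limma 15 passed as negative and 0 as positive, or 88.2% against 9.44% of all genes on that side. The list's median was -0.65, against -0.0013 for all genes. The list was chosen with earlier results of these arrays known, phgdh among them, so its count is a description. atf4a, a gene for the factor itself, had -0.40, -0.37 and -0.78 (mean -0.52 ± 0.23, limma adjusted p = 0.00807), while atf4b had 0.06, -0.28 and -0.41 and did not pass (0.17).

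Enzymes of serine synthesis led the response list. phgdh, the first enzyme of the route, had -1.41, -1.24 and -1.50, and psat1, the second, had -1.18, -0.96 and -1.50. Their means were -1.38 ± 0.13 (limma adjusted p = 6.61e-05) and -1.21 ± 0.27 (0.000514). atf3, a stress-induced transcription factor, had -0.87, -0.87 and -0.86 (limma adjusted p = 0.000137), and eif4ebp3l, a repressor of translation initiation, averaged -0.60 ± 0.04 (0.000635). The measured member that lay nearest to 0 was gpt2, at 0.04 ± 0.09.

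In mammals SLC3A2, SLC7A5, SLC1A4, SLC1A5, SLC7A3 and SLC38A2 are among the transporters reported to respond to this programme. They are a selection and not a full list. In these arrays slc1a4, slc7a3a, slc3a2a and slc3a2b passed on the negative side, and slc7a5, slc1a5 and slc38a2 had means of -0.17, -0.07 and -0.17 that did not pass. slc7a3b, the other copy, lay at 0.06. slc7a1b, of the same cationic group, had -0.10, 0.01 and 0.22, a mean of 0.04 that did not pass, and slc7a11 was not analysed. On replicate 3, slc7a3a, slc3a2b, slc38a2, slc1a5 and, by little, slc1a4 had their most negative values, as did psat1 and atf4a. There slc3a2a and atf3 had their least negative values, and slc7a5 was most negative on replicate 1. The response genes in this comparison were picked after their values were seen. All comparisons in this paragraph share the same untreated pool, and the part of the pool in these ratios was not tested.

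**Figure D4:**
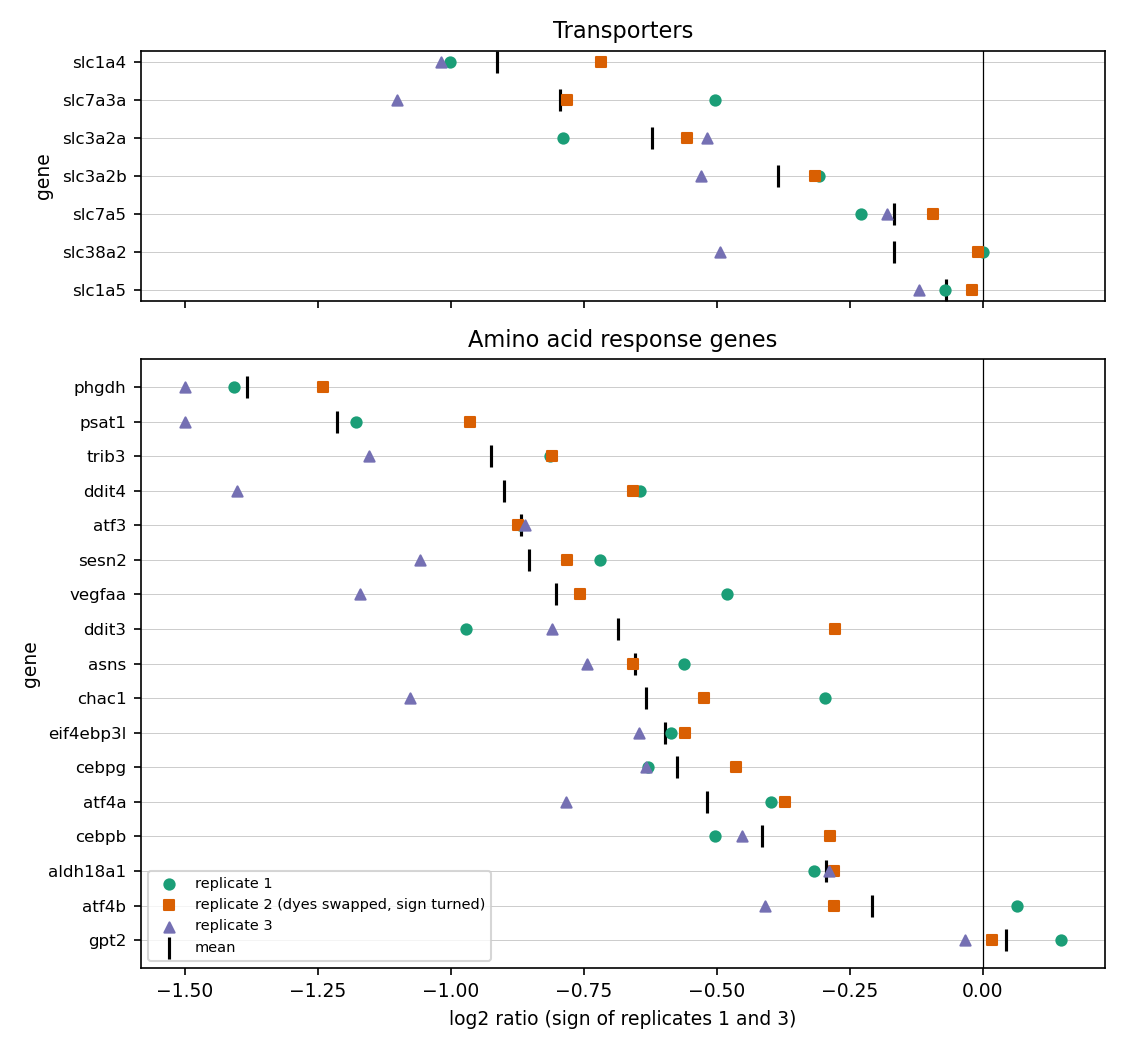
Log2 ratio (horizontal axis, sign of replicates 1 and 3) of 7 transporter genes (upper panel) and of 17 measured amino acid response genes (lower panel), with a marker for each array and a black tick for the mean. The 7 transporters are a selection, which leaves out slc7a3b and slc7a1b, with means of 0.06 and 0.04 that did not pass. In the lower panel 15 genes have all 3 markers on the negative side, and in the upper panel slc38a2 has -0.49 on replicate 3 and values near 0 on the others.

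Markers of other cell types in the whole embryo were mixed. Of 5 measured pronephros and gut markers, where transporters such as slc3a1, slc7a9 and slc6a19 are used in mammals, 1 passed, fabp2 at -0.47, while slc7a9 averaged 0.08 and slc6a19b -0.06. Of 4 yolk and liver markers 1 passed, fabp10a at 1.87, and of 4 red cell markers 3 passed on the negative side, at -0.28 to -1.12. Of 4 pigment cell markers 1 passed on each side, and of 2 vessel markers 0 passed by limma. The shares called were 20% for pronephros and gut, 25% for yolk and liver, 75% for red cells and 50% for pigment cells. Of all genes 19.4% passed, and each of these lists holds few markers. The part of these cell types in the transporter ratios was not tested.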

How the data were processed

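The values deposited by the authors are log ratios of both channels per probe, taken as log2; the submitters' processing notes name Partek. Normalisation and numerator: not given in the sources used here. Of 43648 probes, 45 controls were left out and 23717 had 1 gene symbol in the platform annotation. Replicate 2 was turned because it correlated below 0 with the other arrays. Probes were averaged by symbol, giving 15554 genes, and all 83 transporter symbols were found by Entrez identifier in the GRCz12tu annotation.

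The test of mean ratios against 0 used lmFit and eBayes of limma 3.58.1 (R 4.3.3) and had 2 residual degrees of freedom per gene, and p-values were adjusted by Benjamini-Hochberg over all genes. Differences between a and b copies were tested likewise over 1825 pairs. Intervals are unadjusted 95% intervals of these fits. No label says whether replicates came from separate clutches, so p-values measure the spread between these 3 samples. Alternatives covered scaling, the probe rule, a dye term, the variance prior, the threshold, a minimum change and leaving out replicates.

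Named genes were those that passed with 1 sign on all arrays, a list fixed by name, the 3 nearest to the threshold and up to 4 genes of each other list (8 lists of pathways or functions, 6 of cell markers). Others were named after their values were seen, to complete a group. Families, lists and rules were chosen with earlier results of these data known. Sequences were not used here. Plots were drawn with matplotlib 3.10.9.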

Additional observations from a re-analysis of the deposited data

How the results depend on the processing

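Centring, quantile normalisation, the median of probes and a robust prior each kept the same 13 called transporters. The probe with the smallest spread kept them and added slc43a1a and slc7a6, with 22.6% of all genes called under that rule. All 13 kept their sign under both scalings and both probe rules, and the probe rules leave genes with 1 probe as they are. With 1 sign on all 3 arrays, none of the 13 could change sign under the dye term or without 1 replicate. Those outcomes were therefore fixed in advance. The other alternatives leave the mean as it is. The count of called transporters (13: 8 positive, 5 negative) was 9 with a dye term (5 positive) and 7 at an adjusted p of 0.01 (3 positive). It was 5 against a minimum change of 0.2 (2 positive, 3 negative) and 0 with no shared variance (0 on either side). In that last fit, an ordinary t-test, 21 transporters had an unadjusted p under 0.05. The dye term ended the calls of slc38a11, slc38a8b, slc43a2a and slc6a11a. Leaving out 1 replicate gave 6 to 19 called transporters, 3 to 10 positive and 3 to 9 negative. Tested by probe, 15 of the 83 transporters had at least 1 passing probe, beside 2812 of all 15554 genes. The added ones were slc6a9 and slc7a6.

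In the main limma fit, 5052 of all genes and 23 of the transporters had an unadjusted p under 0.05. The count over all genes (3016) was 1501, 1434, 781 and 0 under the dye term, the threshold of 0.01, the minimum change and no shared variance, and 1066 to 3706 without 1 replicate. Called transporter pairs (5) numbered 1, 1, 1 and 0 there and 0 to 6 without 1 replicate; the count over all pairs (417) was 142, 203, 124 and 0, and 67 to 454. Fits with a dye term or without 1 replicate have 1 residual degree of freedom, so fewer calls there do not show smaller effects.

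Family medians without 1 replicate ranged from -0.068 to -0.0070 for slc1, -0.423 to -0.312 for slc3, 0.042 to 0.052 for slc6, 0.013 to 0.061 for slc7, -0.048 to -0.040 for slc16, -0.064 to 0.050 for slc36, -0.031 to -0.0069 for slc38 and -0.0070 to 0.029 for slc43. With the least variable probe the slc6 median was 0.062. The cause of these shifts was not tested. No paired analysis was possible because the only group was hybridised against 1 pool. Without intensities, signal over background could not be given.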
